A study of Mus musculus with 6 samples.

Results

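The miR-379~410 cluster is a row of miRNA genes in the imprinted Dlk1-Dio3 locus on mouse chromosome 12. Its members were taken by name, as every row of the count tables that carries 1 of the 36 miRNA numbers of the cluster, whichever arm it comes from. This gave 72 of the 1906 mature miRNAs in each table, the 5p and the 3p arm of 36 hairpins.

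The samples were 3 libraries of small RNA from primary oligodendrocytes (Cells) and 3 from the extracellular vesicles (EVs) that such cells released. The strain of all cultures was C57BL/6N, the mice were at embryonic day 14, and the growth medium was Sato with 1% horse serum. For both groups the labels describe a wash and then 24 h of vesicle collection without serum, in Sato that held the supplement B27, and they give 5 to 6 days in vitro for EVs and 6 days for Cells. The vesicle pellet is what came down at 100000 g after spins of 130 g and 10000 g, and such a pellet also holds other particles. No library of medium alone was analysed here, so miRNAs brought by the medium and miRNAs released by the cells cannot be told apart in the pellet.

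Imprinted means that only 1 parental copy is active. In this locus the miRNAs come from the maternal copy, cut from long noncoding transcripts that also carry Meg3, Rian and Mirg. The cluster is active in embryo, placenta and brain, and in neurons its transcription is driven by activity through Mef2. miR-134, its best known member, acts on Limk1 and restrains the growth of dendritic spines. Each hairpin is cut into a 5p and a 3p arm, and one of the arms is usually kept in Argonaute while the other is lost. The seed, bases 2 to 8 of the mature miRNA, is the main part that pairs with targets.

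The sequences shown first are those of the members with the clearest changes, so that relatives that moved in opposite directions can be compared. They are RefSeq mature sequences of the build GRCm38.p6, written 5′ to 3′ with the seed in capitals. The arms of miR-379 and miR-411, of which 3 were lower in EVs and miR-379-3p had too few reads to be tested, read as follows.
miR-379-5p: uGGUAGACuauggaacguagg
miR-379-3p: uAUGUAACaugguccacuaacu
miR-411-5p: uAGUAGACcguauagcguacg
miR-411-3p: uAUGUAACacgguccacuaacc
Members that were higher in EVs include the next relative of the miR-411 3p arm, miR-380-3p, and the 3p arms of 2 pairs of close relatives.
miR-380-3p: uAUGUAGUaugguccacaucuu
miR-376a-3p: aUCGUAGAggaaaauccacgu
miR-376b-3p: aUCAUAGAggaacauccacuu
miR-300-3p: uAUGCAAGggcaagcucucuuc
miR-381-3p: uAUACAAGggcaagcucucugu
Both arms of miR-154 and miR-369 are shown because a stricter arm test, added after values were seen, called the balance between their arms. The arm test as first set also called miR-154 but not miR-369. miR-134-5p is shown because of its known role.
miR-154-5p: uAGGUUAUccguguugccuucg
miR-154-3p: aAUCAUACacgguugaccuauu
miR-369-5p: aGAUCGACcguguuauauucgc
miR-369-3p: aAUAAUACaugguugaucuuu
miR-134-5p: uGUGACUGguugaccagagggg

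Base by base from the 5′ end, miR-379-3p and miR-411-3p agree at 20 of 22 positions and share the seed AUGUAAC. miR-300-3p and miR-381-3p agree at 19 of 22 positions and miR-376a-3p and miR-376b-3p at 18 of 21, each pair with 1 difference inside the seed, G4A (position 4 from the 5′ end). How the authors treated reads that match several places is not given in the sources used here, so reads could have moved between such relatives. Among 68 member rows with a RefSeq sequence, 5 seeds were shared, each by 2 rows. No 2 tested members, and no tested member and other tested miRNA, had the same seed where both had a sequence.

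The cluster took a larger share of reads in EVs than in Cells. It held 1.93%, 1.60% and 1.48% of all miRNA counts in EVs replicates 1, 2 and 3. In Cells replicates 1, 2 and 3 it held 0.700%, 0.705% and 0.583%. The lowest EV library was thus above the highest Cells library, and the ratio of the means was 2.52 (1.67% ± 0.233 against 0.663% ± 0.0693, SD, n = 3 each). It stayed between 2.30 and 2.67 without the most abundant member, without miR-9-5p in the total, or without any single library. No test is given for this sum, because the cluster was chosen with earlier results known. By library totals alone, all 336 miRNAs tested below had a median log2 fold change, EVs over Cells, of 0.54. Of them, 47.3% had EVs above Cells without overlap. The sums rest on 5026 to 10203 reads in EVs and 895 to 1179 in Cells, from totals of 313766 to 689475 and 126910 to 202358 reads.

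**Figure D1:**
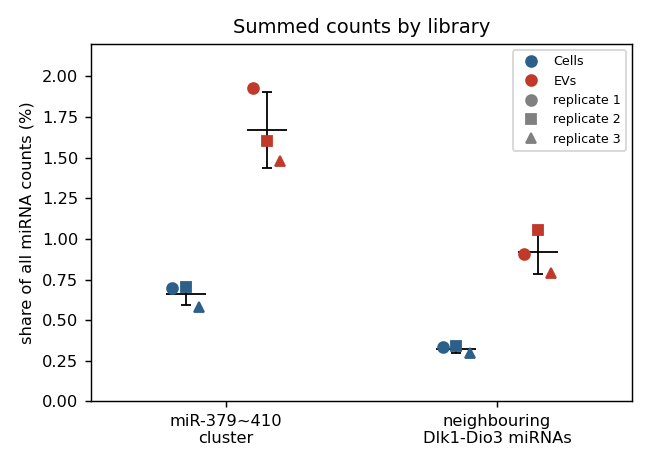
Share of all miRNA counts (%) held by the miR-379~410 cluster and by the neighbouring miRNAs of the Dlk1-Dio3 locus, with 1 point per library and the mean ± SD as bars (n = 3). The 3 EV points of the cluster lie between 1.48% and 1.93%, above the 3 Cells points between 0.583% and 0.705%.

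Markers of cell types moved with the same comparison. Of the oligodendrocyte lineage markers, miR-219a-2-3p had a mean of 12820 ± 1457 CPM over the EV libraries, against 23530 ± 5180 over the Cells libraries, and miR-338-5p 1359 ± 205 against 4037 ± 378 (SD, n = 3). miR-219a-5p, from the same family, went the other way with 8310 ± 2398 against 3473 ± 246.5, as did miR-138-5p with 10470 ± 1135 against 4582 ± 785, while both arms of miR-219b had no read in Cells. Of that list, 5 of 8 were tested, 2 rose and 3 fell by edgeR's test (given with the members), and the list summed to 33570 to 36130 CPM in the EV libraries, against 33980 to 43470 in the Cells libraries. All 13 neuronal markers were tested and had reads, and 6 rose and 3 fell. The list summed to 111100 to 144500 CPM in the EV libraries, against 53250 to 68790 in the Cells libraries. The largest part was miR-128-3p, with a mean of 78840 ± 11200 CPM in EVs and 31370 ± 11280 CPM in Cells. Those that fell, EVs against Cells, were miR-218-5p (7284 against 9288 CPM), miR-132-5p (276.9 against 439.8 CPM) and miR-212-5p (46.4 against 136.2 CPM). miR-124-3p, the defining miRNA of neurons, had a mean of 24950 ± 4216 CPM over the EV libraries, against 9453 ± 3476 over the Cells libraries. Of 10 mesenchymal and mural markers 4 were tested and all 4 rose, and miR-214-5p was at 0 in every library. The list summed to 2588 to 5063 CPM in the EV libraries, against 370.3 to 1076 in the Cells libraries. Of the tested ones, miR-145a-5p, miR-199a-3p and miR-199b-3p had only 12, 15 and 9 reads in Cells. These could be tested through their reads in EVs alone, so the filter on low counts favoured a rise. Of all tested miRNAs, 28.6% rose and 28.9% fell by the same test. The part of other cell types in the changes of the cluster was not tested. In such bulk samples fewer cells of a type and less RNA per cell cannot be told apart.

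Level was spread over many members, and their order differed between the groups. In Cells, miR-541-5p and miR-379-5p led, with 10.4% ± 0.664 and 9.47% ± 0.12 of the cluster's reads (SD, n = 3). In EVs, miR-376a-3p and miR-369-3p led, with 11.95% ± 0.593 and 10.8% ± 1.06, and miR-379-5p held 2.55% ± 0.566. The 5 leading members together held 47.1% of the cluster's reads in EVs and 43.4% in Cells. Over the 32 members tested below, mean levels in EVs and Cells followed each other with a Spearman rho of 0.83, a description across miRNAs that share the same libraries.

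Change was tested for each miRNA with edgeR's quasi-likelihood test over all 336 miRNAs with enough counts, and a miRNA was called at a Benjamini-Hochberg (BH) adjusted p below 0.05. Fold changes are after TMM scaling, which sets the bulk of miRNAs level between libraries, while CPM carries only the library's total. The same fit with library totals only put the median of all tested miRNAs at 0.54 and not 0.06, so CPM ratios lie above the fold changes given, and rises and falls are relative to the bulk of miRNAs. Of the 72 member rows, 32 passed the filter on low counts, from 26 of the 36 hairpins. In EVs 17 of the 32 (53.1%) were higher, where 28.6% of all tested miRNAs were, and 3 (9.38%) were lower, where 28.9% of all were. The remaining 12 did not pass, so 20 of 32 were called in either direction, and of all tested miRNAs 57.4% were. At least 2-fold higher were 13 of 32 (40.6%), against 17.3% of all. The CPM of the groups (counts scaled to a library total of 1000000) did not overlap, with EVs above, for 24 members (75.0%, against 47.3% of all) and, with EVs below, for 3 (9.38%, against 20.2%). The median log2 fold change of the tested members, EVs over Cells, was 0.91, with a range of -1.67 to 2.58 and a middle range of 0.30 to 1.44, and that of all tested miRNAs was 0.06. A member with few reads in Cells could pass the filter through EVs alone, so these shares describe the tested rows and not the whole cluster. With library totals only, 44.0% of all tested miRNAs were higher and 17.9% lower, and 23 of the 32 members were higher (71.9%) and 3 lower. Without EVs replicate 1, 11 of 30 tested members (36.7%) were higher and 3 lower, where 20.7% and 28.0% of all tested miRNAs were. With no filter beyond 1 read, 20 of 63 members (31.7%) were higher and 4 lower, where 12.2% and 10.9% of 1015 miRNAs were, and the median of the members was 0.86 and that of all 0.34.

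**Figure D2:**
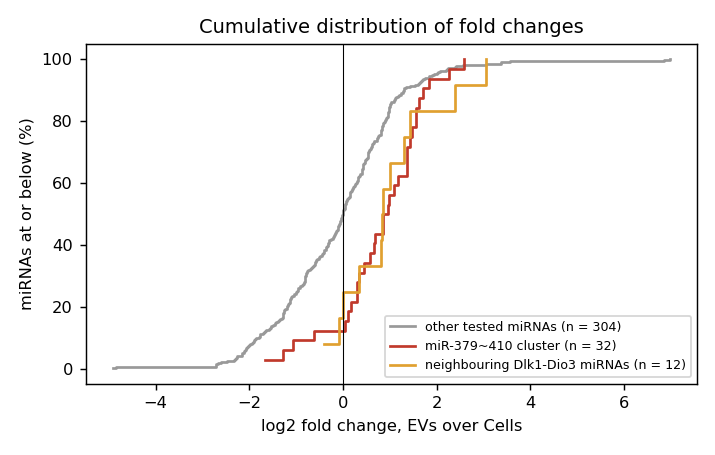
Cumulative share (%) of miRNAs at or below each log2 fold change, EVs over Cells, for the 32 tested members of the cluster, the 12 tested neighbours in the Dlk1-Dio3 locus and the 304 other tested miRNAs. The 304 are all tested miRNAs outside the cluster and include the 12 neighbours. The line of the cluster lies to the right of the other miRNAs over most of its range, with medians of 0.91 and 0.00, and starts at -1.67 with the 3 members that were lower.

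The largest rise was that of miR-376a-3p, from a group of related hairpins in the middle of the cluster. It stood at 2394, 1950 and 1669 CPM in EVs and at 230.5, 244 and 252 CPM in Cells. The Cells libraries lay close together and every EV library was far above them, a 6.00-fold difference (log2 fold change 2.58, SE 0.24, edgeR BH-adjusted p = 3.18e-05). Its relative miR-376b-3p was 3.09-fold higher, at 447.8, 306 and 377.1 CPM in EVs and 64.0, 102 and 98.8 CPM in Cells (log2 fold change 1.63, SE 0.25, edgeR BH-adjusted p = 0.000657). miR-376c-3p, chosen after its values were seen, had 248, 115 and 155 CPM in EVs and 83.2, 102 and 88.95 CPM in Cells, with no overlap between groups but no call (0.45, SE 0.33, edgeR BH-adjusted p = 0.270). Differences among the 3 relatives were not tested.

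Both miRNAs of the pair miR-300-3p and miR-381-3p rose, and the difference between them was not tested. miR-381-3p had 1441, 1157 and 1110 CPM in EVs and 454.6, 252 and 193 CPM in Cells (log2 fold change 1.55, SE 0.35, edgeR BH-adjusted p = 0.00452). miR-300-3p had 519.7, 481 and 410.5 CPM in EVs and 173, 78.8 and 88.95 CPM in Cells (1.56, SE 0.34, adjusted p = 0.00369). For both, Cells replicate 1 was the highest of its group, and no Cells library reached an EV library.

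miR-369-3p, an A- and U-rich miRNA near the end of the cluster, had the highest mean CPM of the members over the 6 libraries. Its levels were 2239, 1810 and 1424 CPM in EVs and 384, 638 and 469.5 CPM in Cells, a 2.70-fold rise (log2 fold change 1.43, SE 0.26, edgeR BH-adjusted p = 0.00152). miR-487b-3p rose 2.25-fold, from 448, 536 and 563 CPM in Cells to 1944, 1425 and 1430 CPM in EVs (1.17, SE 0.21, adjusted p = 0.00166). miR-495-3p rose 1.94-fold, from 391, 552 and 439.8 CPM to 1329, 1125 and 1231 CPM (0.96, SE 0.20, adjusted p = 0.00328). In all 3 miRNAs the lowest EV library was above the highest Cells library.

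miR-134-5p, the regulator of dendritic spines, was 2.58-fold higher in EVs. It had 596, 475 and 408 CPM in EVs and 147, 158 and 114 CPM in Cells (log2 fold change 1.37, SE 0.26, edgeR BH-adjusted p = 0.00230). miR-154-5p rose similarly, with 476, 516 and 361 CPM in EVs and 102, 173 and 88.95 CPM in Cells (1.47, SE 0.30, adjusted p = 0.00314). miR-380-3p was lower in level but 3.28-fold higher in EVs, with 174, 147 and 187 CPM against 32.0, 47.3 and 34.6 CPM, which rest on 18 reads in Cells (1.71, SE 0.31, adjusted p = 0.00152).

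Of the other 7 members that rose, all chosen after their values were seen, miR-666-3p and miR-544-3p had the largest fold changes and the fewest reads in Cells, 7 and 5. miR-666-3p had 97.4, 98.8 and 103 CPM in EVs and 19.2, 31.5 and 0 CPM in Cells, where a count of 0 in Cells replicate 3 allows up to 14.8 CPM (log2 fold change 2.26, SE 0.64, edgeR BH-adjusted p = 0.0131). miR-544-3p had 65.0, 51.0 and 43.5 CPM in EVs and 6.40, 23.6 and 4.94 CPM in Cells (1.84, SE 0.61, adjusted p = 0.0271). miR-377-3p rose by a log2 fold change of 1.37, miR-494-3p by 1.36, miR-382-3p by 0.85, miR-410-3p by 0.85 and miR-409-3p by 0.67.

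Several of these calls ended when a single library was left out or another setting was used. DESeq2's Wald test ended those of miR-377-3p (1.33, BH-adjusted p = 0.0623) and miR-409-3p (0.61, 0.0647). A minimum of 50 CPM in 3 libraries ended those of miR-382-3p (0.78) and miR-409-3p (0.60), and thinning to the smallest library total those of miR-409-3p (0.46) and miR-410-3p (0.52). Without EVs replicate 1 the calls of miR-377-3p (1.19), miR-382-3p (0.72), miR-409-3p (0.54), miR-410-3p (0.60) and miR-494-3p (1.27) ended. Without EVs replicate 2 those of miR-382-3p (0.75), miR-409-3p (0.58), miR-410-3p (0.80) and miR-494-3p (1.29) ended, and without EVs replicate 3 that of miR-494-3p (1.35). On the side of Cells, miR-410-3p (0.75), miR-494-3p (1.25) and miR-544-3p (1.65) lost the call without replicate 1. Without Cells replicate 2, miR-377-3p (1.26), miR-382-3p (0.88), miR-409-3p (0.63) and miR-494-3p (1.00) lost it. Without Cells replicate 3, miR-377-3p (1.38), miR-382-3p (0.54), miR-409-3p (0.56), miR-410-3p (0.77) and miR-544-3p (1.35) lost it. No sign changed among them, and miR-666-3p kept its call in each of these fits.

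**Figure D3:**
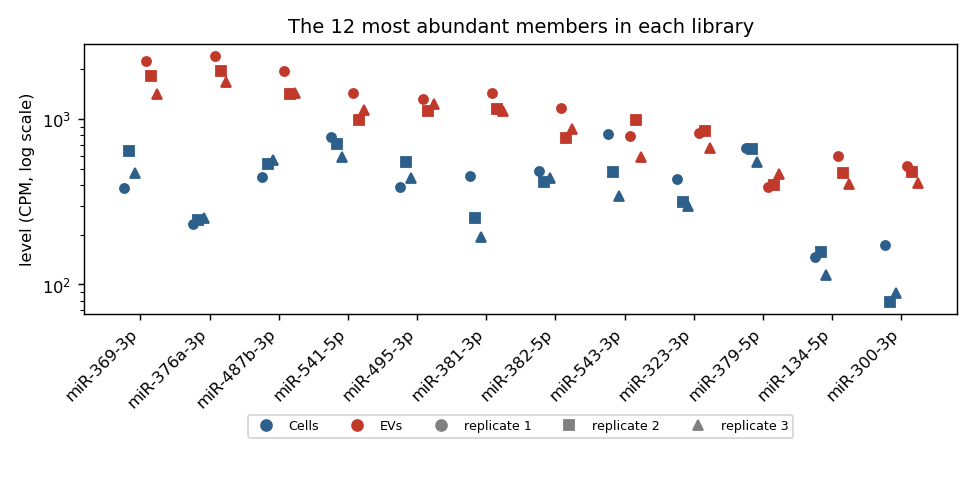
Level in CPM (log scale) of the 12 most abundant tested members in each of the 3 Cells and 3 EV libraries, with 1 point per library. EVs lie above Cells without overlap for 10 of them, miR-543-3p overlaps, and miR-379-5p lies lower in EVs, at 390 to 466 CPM against 548.5 to 672 CPM. Of all tested miRNAs, EVs lay above Cells without overlap for 47.3% and below for 20.2%.

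The 3 members that were lower in EVs all came from miR-379 and miR-411. miR-379-5p had 390, 398 and 466 CPM in EVs and 672, 662 and 548.5 CPM in Cells, and every EV library was below every Cells library. This is a 2.08-fold decrease (log2 fold change -1.06, SE 0.21, edgeR BH-adjusted p = 0.00278). miR-411-5p had 88.2, 82.9 and 94.3 CPM in EVs and 147, 189 and 133 CPM in Cells, a 2.41-fold decrease (-1.27, SE 0.26, adjusted p = 0.00311). miR-411-3p, chosen after its values were seen, had 14, 16 and 30 reads in EVs and 10, 17 and 20 reads in Cells, from totals that were larger in EVs. Scaled to the total this is 42.3 ± 9.31 CPM in EVs and 98.94 ± 34.96 CPM in Cells (SD, n = 3), without overlap and a 3.18-fold decrease (-1.67, SE 0.37, adjusted p = 0.00384). With scaling by library size only in place of TMM scaling, these decreases were smaller but still called, miR-379-5p at -0.58. miR-379-3p was not tested. It had 13 reads in EVs and 14 in Cells, from pooled totals of 1434245 and 485457 reads.

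Several abundant members did not pass. miR-543-3p was spread widely, with 791, 988 and 587 CPM in EVs and 545 ± 242 CPM in Cells (SD, n = 3), where replicate 1 was the highest at 813, and the groups overlapped (log2 fold change 0.05, SE 0.38, edgeR BH-adjusted p = 0.929). miR-541-5p had 1439, 988 and 1140 CPM in EVs and 781, 701 and 588 CPM in Cells, without overlap, but after TMM scaling its change was 0.30 (SE 0.24, adjusted p = 0.307). miR-323-3p (824, 845 and 665.7 CPM against 435, 315 and 296.5 CPM) and miR-382-5p (1165, 765 and 870 CPM against 486.6, 418 and 440 CPM) also did not overlap. Their log2 fold changes were 0.68 (SE 0.27, edgeR BH-adjusted p = 0.0515) and 0.58 (SE 0.23, adjusted p = 0.0558). With the replicate number as a block, miR-323-3p (0.69, adjusted p = 0.0406), miR-382-5p (0.57, adjusted p = 0.0389) and miR-485-3p (0.92, adjusted p = 0.0486) were called higher in edgeR. That made 20 members higher and 3 lower, beside 27.1% and 28.6% of all tested miRNAs. miR-485-3p, chosen after its values were seen, stood at 0.99 without the block (SE 0.39, edgeR BH-adjusted p = 0.0502). Leaving out 1 library also gave calls, namely for miR-323-3p without EVs replicate 3 (0.80) or Cells replicate 1 (0.95) and for miR-382-5p without Cells replicate 1 (0.71). miR-485-3p was called without EVs replicate 3 (1.19) or Cells replicate 1 (1.23), and miR-496a-3p (1.09 with all libraries), chosen after its values were seen, without EVs replicate 3 (1.24).

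Along the chromosome, the 3 called decreases all lay in the first 2 genes of the cluster, and the rises were spread over the rest. Gene order was taken from the RefSeq gene table, which belongs to another build than the counts, so no coordinates are given. These genes are miR-379 and miR-411, and all 3 of their tested arms fell. Among the 34 genes that follow, 17 of 29 tested arms rose, none fell by the same test and 12 were not called. Their log2 fold changes ran from -0.62 to 2.58 around a median of 0.99. This split was chosen after the values were seen and has no test. Over all tested miRNAs, 28.6% were higher and 28.9% lower. Some of the rises counted here, such as that of miR-544-3p with 5 reads in Cells, could be tested through EVs alone. The gene miR-380, at place 4, already had a 3p arm that rose, but this arm had 18 reads in Cells and could also be tested through EVs alone.

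By stretches of 12 genes, 3 of 8 tested arms rose and 3 fell in genes 1 to 12 (median 0.40). In genes 13 to 24, 7 of 9 rose and 0 fell (median 1.55), and in genes 25 to 36, 7 of 15 rose and 0 fell (median 0.85). Beside these counts, 28.6% of all tested miRNAs rose and 28.9% fell. The 3 rises in genes 1 to 12 were miR-380-3p, miR-494-3p and miR-666-3p, with 18, 13 and 7 reads in Cells. They could be tested through EVs alone, as could miR-544-3p and miR-377-3p in the later stretches, so the filter on low counts favoured a rise there. The middle stretch includes the miR-376 hairpins, miR-300 and miR-381. Over all 32 tested arms, Spearman's rho between gene order and log2 fold change was 0.10, and -0.20 over 29 without miR-379 and miR-411. These are descriptions across miRNAs of 1 transcript region in the same libraries.

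**Figure D4:**
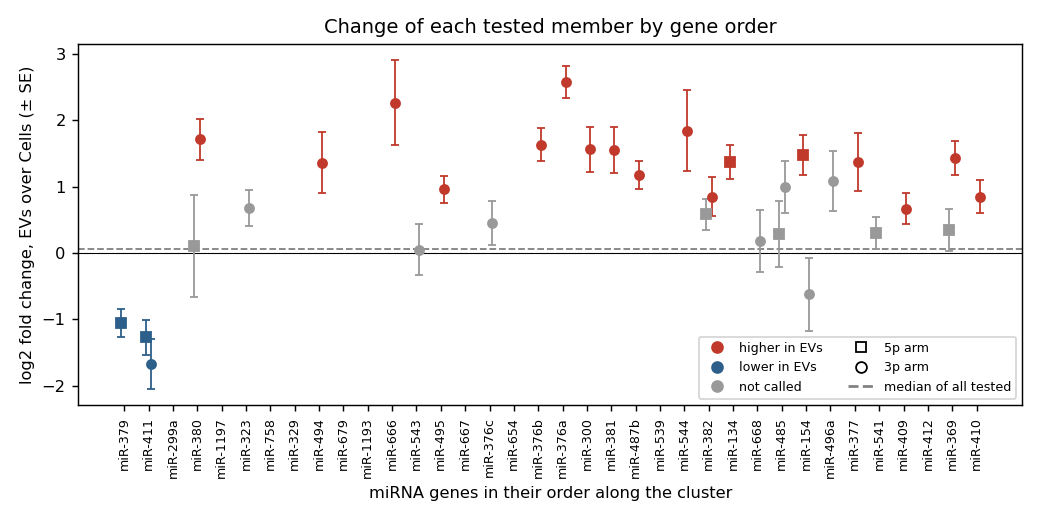
Log2 fold change, EVs over Cells (± SE), of the 32 tested members, by the order of the 36 genes along the cluster, with squares for 5p arms, circles for 3p arms and colours for the call. The 3 arms of miR-379 and miR-411 at the left lie between -1.67 and -1.06, and the dashed line marks the median of all 336 tested miRNAs, 0.06.

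The 3p arm prevailed in most hairpins. Of 20 hairpins with at least 20 reads in each group, 14 had more 3p than 5p reads and 6 had more 5p reads. The prevailing arm was the same in EVs and Cells for all 20. miR-381, miR-487b, miR-495 and miR-410 were almost wholly 3p, with 0, 4, 1 and 1 reads of the 5p arm in EVs beside 1749, 2271, 1775 and 569 of the 3p arm. miR-541 and miR-134 were almost wholly 5p, with 1 and 3 reads of the 3p arm in EVs. Of the tested 3p arms in the cluster, 15 of 23 rose and 1 fell, where 33.9% of all 171 tested 3p arms rose and 21.1% fell. Of its tested 5p arms, 2 of 9 rose and 2 fell, where 23.0% of all 148 rose and 37.2% fell. The difference between the arms was not tested.

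Arm balance was compared with limma on log2((5p + 0.5)/(3p + 0.5)) over 184 hairpins, 19 of them in the cluster. It called 7 of the 19, beside 31.5% of all, with a log2 ratio that was higher in EVs for miR-134 (by 2.00) and miR-154 (by 2.16) and differed by -1.58 for miR-300, -1.79 for miR-376c, -3.63 for miR-381, -2.26 for miR-410 and -2.40 for miR-495. For miR-381 the 5p arm had 0 reads in all 6 libraries, so its ratio followed the count of the 3p arm alone. In miR-134, miR-376c, miR-410 and miR-495 the minor arm had 1 to 3 reads over the 3 EV libraries and 0 in Cells. In miR-300 it had 12 reads in EVs and 2 in Cells, and in miR-154, where the 3p arm is the minor one, that arm had 19 reads in Cells. A stricter version was therefore added after these values were seen, with at least 10 reads of each arm in each group and a pseudocount scaled to library depth. It covered 95 hairpins, of which 33.7% were called, and 2 of the 7 in the cluster, miR-154 and miR-369.

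In miR-154 the 5p arm supplied 94.9%, 89.5% and 93.6% of the hairpin's reads in EVs and 80.0%, 75.9% and 69.2% in Cells. All EV libraries were above all Cells libraries, by 2.10 on the log2 scale of the 5p to 3p ratio (SE 0.40, limma BH-adjusted p = 0.00394). The shift stayed called without any single library, at 1.86 to 2.40, and with the replicate block. It goes with the 5p arm's rise given above, while miR-154-3p had 25.5, 60.6 and 24.7 CPM in EVs and 25.6, 55.2 and 39.5 CPM in Cells (log2 fold change -0.62, SE 0.55, edgeR BH-adjusted p = 0.377).

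In miR-369 the 5p arm supplied 5.02%, 4.22% and 7.79% of reads in EVs and 11.8%, 10.99% and 10.4% in Cells, a shift of -1.10 (SE 0.35, limma BH-adjusted p = 0.0386). The arm test as first set did not call miR-369 (-1.14, limma BH-adjusted p = 0.0657). The 3p arm rose as given above, and miR-369-5p, chosen after its values were seen, had 118, 79.7 and 120 CPM in EVs and 51.2, 78.8 and 54.4 CPM in Cells (log2 fold change 0.35, SE 0.32, edgeR BH-adjusted p = 0.377). The arm call ended with the replicate block (adjusted p = 0.0578), and without EVs replicate 1 (-1.04, 0.124), EVs replicate 2 (-0.91, 0.114), Cells replicate 2 (-1.11, 0.0590) or Cells replicate 3 (-1.15, 0.0655). miR-379 (0.72, adjusted p = 0.252), miR-411 (0.36, 0.472), miR-382 (-0.31, 0.502), miR-409 (-1.01, 0.174) and miR-485 (-0.48, 0.573) were not called by limma. So both arms of miR-411 fell, and the shift between them was not called (95 hairpins tested).

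**Figure D5:**
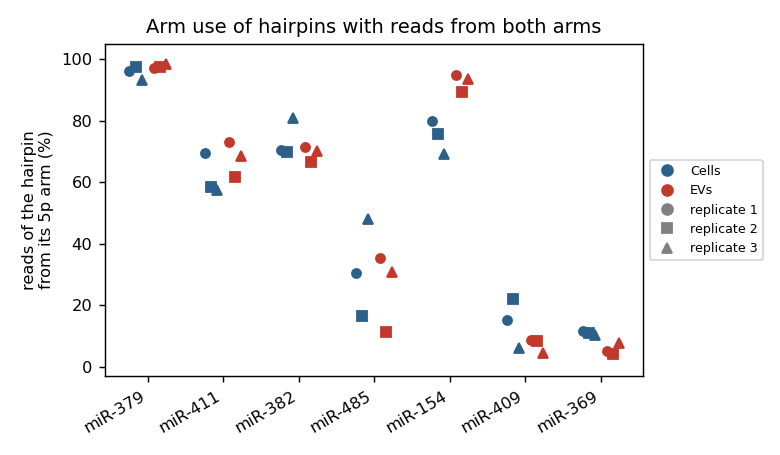
Share (%) of a hairpin's reads that come from its 5p arm, in each of the 3 Cells and 3 EV libraries, for the 7 hairpins of the cluster with at least 10 reads of each arm in each group. miR-154 lies at 89.5% to 94.9% in EVs and 69.2% to 80.0% in Cells, and miR-369 at 4.22% to 7.79% and 10.4% to 11.8%.

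In sequence, the tested members began with A more often, and with C less often, than the other tested miRNAs by plain counts. Of 29 tested members with a RefSeq sequence, 13 (44.8%) began with A, 12 (41.4%) with U and 1 (3.45%) with C. Among 268 other tested miRNAs with a sequence the shares were 26.1% A, 44.0% U and 21.6% C. Median GC content was 45.5% in the members and 47.6% in the others, and median length was 22 nt in both. Within the cluster, Spearman's rho between GC content and log2 fold change was -0.16 over 29 members, and over 297 tested miRNAs with a sequence it was -0.04. The letters GGAG, searched on the miRNA strand because they are known from vesicle-enriched miRNAs, were in 0 of the 29 tested members in 9.70% of the other tested miRNAs and in 8.75% of all tested miRNAs. Differences in sequence were not tested. Sequences for miR-376c-3p, miR-485-5p, miR-487b-3p and miR-539-3p were not used here.

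The other miRNAs of the Dlk1-Dio3 locus, from a list of 18 numbers that includes miR-127, miR-136 and miR-431, also held a larger share of counts in EVs. By the edgeR test 8 of their 12 tested arms rose, 0 fell and 4 were not called (28.6% of all tested miRNAs rose and 28.9% fell), around a median log2 fold change of 0.84. Of those that rose, miR-431-3p had 14 reads in Cells and could be tested through EVs alone. The filter on low counts favoured a rise there. miR-341-3p, with the largest log2 fold change (3.06), had 23 reads in Cells. The share of counts of these neighbours was 0.917% ± 0.133 in EVs, 2.83 times the 0.325% ± 0.0252 of Cells (SD, n = 3). Whether the 2 parts of the locus differ was not tested.

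The 40 member rows that were not tested carried little signal. Of these 31 had at least 1 read, with 476 reads together in EVs and 103 in Cells, and no row exceeded 59 reads in EVs or 14 in Cells. Their pooled share of reads was 1.56 times as high in EVs, against 2.52 for the whole cluster. A further 9 rows had no read in any library, among them both arms of miR-654, the single hairpin without a read. In 11 rows there were reads in EVs and none in Cells, where 1 read was worth 4.94 to 7.88 CPM, and a lower level in Cells was not detectable at this depth.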

How the data were processed

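Each library had 1 table of read counts, which the authors deposited unscaled with a whole number for every mature miRNA. The submitters' processing notes name the build NCBIM37 (mm9), featureCounts 1.4.6-p4 of Subread, Bowtie 0.12.8, cutadapt 1.7.1 and bcl2fastq 1.8.4, with no settings. The miRNA release, the use of strand and the removal of PCR duplicates were not found in any source, so relatives may share reads, and floors cover counting error only.

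edgeR 4.0.16 (R 4.3.3) was fitted to the deposited counts of all miRNAs that passed filterByExpr (minimum count 10), with TMM scaling and group as the only term. DESeq2 1.42.0 was an alternative and limma 3.58.1 tested arm ratios. CPM carries no TMM factor. SEs come from the coefficient and the F statistic. The scripts were tested on simulated data. There the arm test as first set called 12 of 30 changed hairpins and also 4 unchanged ones, of 184 in all. Its stricter version called 8 of 11 changed hairpins and 0 unchanged ones, of 97 in all. Chi-square statistics over degrees of freedom between replicates of a group were 8.40 to 51.4, so none was a copy. Nothing in the labels ties replicates to separate cultures or animals. A p-value here therefore weighs a difference against the spread of these 3 libraries a group, which may be technical.

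Same-numbered EV and Cells libraries deviated together from their group means (r = 0.115, 0.106 and 0.256 over 336 miRNAs, log2 CPM, prior count 2), while other pairs lay at -0.148 to 0.0213. Deviations from a group mean add up to 0, so the lower values of the other pairs are not separate support. The labels give the numbers, and these low correlations do not establish a pairing.

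Members and lists were chosen with earlier results of these data known. The miRNAs named by rule are the 12 most abundant tested members, the 8 largest increases and up to 8 decreases among called members with at least 100 CPM and no overlap, and hairpins with an arm call. Others are said to have been chosen after their values were seen.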

Additional observations from a re-analysis of the deposited data

How the results depend on the processing

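Of the 20 called members, 14 kept their call in every alternative that tested them (11 higher, 3 lower, up to 14 alternatives each), among them miR-376a-3p (2.42 to 3.05) and miR-379-5p (-1.19 to -0.58). The same share over all called miRNAs is not given here, so this count has no reference. Without single libraries, 11 to 19 of 28 to 36 tested members were higher, 3 lower, and the median was 0.73 to 0.95. With library size only the median of the members was 1.38 and that of all tested miRNAs 0.54, so the distance between them was 0.84, against 0.85 with TMM. This distance was 0.52 with no filter (63 members), 0.67 without Cells replicate 3 and 0.75 to 0.91 in the remaining alternatives. Of the 32 members tested, 23 were higher with library size only (miR-376c-3p, 0.93, and miR-541-5p, 0.79, among them), beside 44.0% of all tested miRNAs. There were 21 with TMM factors computed without the members (33.3% of all), 17 with DESeq2 size factors (27.1%) and 15 with the DESeq2 Wald test (26.5%). Each of these settings had 3 members lower, where 17.9% to 29.8% of all were. With at least 50 CPM, 14 of 28 were higher and 3 lower, where 27.2% and 29.2% of all were. After thinning, 13 of 22 were higher and 2 lower (29.7% and 28.6% of all). With no filter, 20 of 63 were higher and 4 lower (12.2% and 10.9% of all). The replicate block gave 20 higher and 3 lower (27.1% and 28.6% of all). Apart from the reported block calls, the block changed no other call of a member. The calls that leaving out 1 library ended are given with the members. Over all tested miRNAs the share called higher was 18.8% to 27.7% without single libraries, and the share called lower 23% to 29%. Signs turned for 3 members that were not called in any alternative. miR-543-3p stood at -0.01 after thinning to 126910 reads and at -0.28, -0.08 and -0.25 without EVs replicate 2, Cells replicate 2 and Cells replicate 3 (at most 0.56 without a library). miR-485-5p stood at -0.08 and -0.06 without EVs replicate 1 and Cells replicate 2 (at most 0.71 without a library, and 0.78 with library size only), and miR-380-5p at -0.64 without Cells replicate 3 (at most 0.97 without a library).

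The 7 arm calls among 19 hairpins of the cluster stood beside 31.5% of all hairpins called. They became 13 of 19 with a pseudocount of 1 (41.3% of all), 2 of 11 with a minimum of 30 reads (25.7%), 2 of 18 after thinning (17.1%), 10 of 19 with the replicate block (34.8%) and 5 to 8 without single libraries (17.9% to 30.6%). The stricter version gave 2 of 7 (33.7%), with the block 1 of 7 (34.7%), and 1 to 3 of 6 or 7 without single libraries (19.4% to 49.4%). The arm shift of miR-543 was -0.05 with a pseudocount of 1, and that of miR-485 ran from -1.02 to 0.09 without single libraries, 0.09 being without EVs replicate 2 (0.15 in the stricter version). Where an arm is empty the ratio follows the count of the other arm, and otherwise the cause of these moves was not tested. Reads in Cells, under 20 for 9 of the tested members, limit the precision of the fold changes.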
